A study of Mus musculus with 13 samples.

Results

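A group of 9 stress-linked bZIP transcription factor genes, namely Atf1, Atf2, Atf3, Atf5, Cebpa, Cebpb, Cebpd, Cebpg and Nfil3, was followed through ER stress. They were found by gene symbol among the 22406 genes of the tables. The values are ribosome footprints, which give the relative protein synthesis of each gene, a product of its mRNA level and its translation. Mouse embryonic fibroblasts (MEFs) that were PERK WT or PERK -/- were untreated (control) or treated with 1 μM thapsigargin (Tg) for 1, 2, 5 or 8 h, and NIH3T3 cells, a mouse fibroblast line, with 200 nM Tg for 2 or 7 h. Tg blocks the calcium pump of the ER and so disturbs folding there. All 13 conditions had a single library, which leaves no replicate spread to compare with, so no test was made and genotype cannot be told apart from cell line or library. The ages, strains and origins of the lines were not given in the sources used here.

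The bZIP factors bind DNA as dimers, through a basic region next to a leucine zipper, and partner choice sets which sites they bind. PERK is the ER stress sensor that phosphorylates eIF2α. This lowers protein synthesis in general while the main reading frames of a few mRNAs with upstream reading frames, of which Atf4 is the best known and Atf5 a further one, are translated more. ATF4 then turns on genes that include Atf3 and Ddit3, which encodes CHOP. The C/EBP proteins encoded by Cebpa, Cebpb, Cebpd and Cebpg pair among themselves and with ATF4 and CHOP.

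In PERK WT MEFs, Atf5, Atf3, Cebpb and Nfil3 stood at 3 or more times the control level from 2 h to 8 h of Tg, and in PERK -/- MEFs none of these 4 reached 3-fold. Cebpb and Cebpd levels were above their control in all 4 Tg libraries of WT MEFs and below their control in all 4 of PERK -/- MEFs. The WT changes of Cebpd at 5 and 8 h were within counting error, with 6.79 TPM at 8 h against 6.14 in the control. Atf1 and Atf2, of the CREB/ATF branch, stayed under 2-fold in WT MEFs, while Atf2 at 8 h in PERK -/- MEFs was 2.22-fold up in TPM but under 2-fold in counts per library total (log2 change 0.84). In NIH3T3 cells Atf5 was up 7.08-fold at 2 h and Nfil3 2.20-fold at 7 h, and Atf3 had at most 8 counts. These folds are ratios of TPM, a per-length share of a library, after values under 4 were raised to 4.

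The sequences upstream of 4 of these genes are shown because these 4 were called up at 2, 5 and 8 h in WT MEFs and because ATF4 with a C/EBP partner is known to bind the composite element TGATGNAA (CARE), and CREB/ATF dimers the element TGACGTCA (CRE) or its core TGACG. All 3 motifs were searched on both strands of RefSeq windows (GRCm38.p6, the assembly of mm10) that run from 250 bases before to 50 bases after the start. The core lies within the CRE, so a CRE counts as a core too. Capitals mark matches, and bases that GENCODE places in an exon were left out.
Atf3 (chr1:191183341-191183583, minus strand): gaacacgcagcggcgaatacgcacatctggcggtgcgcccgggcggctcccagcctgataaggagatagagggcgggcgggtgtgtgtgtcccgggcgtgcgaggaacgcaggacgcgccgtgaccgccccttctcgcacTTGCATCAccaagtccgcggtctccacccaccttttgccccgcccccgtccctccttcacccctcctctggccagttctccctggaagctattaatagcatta
Cebpb (chr2:167688665-167688914, plus strand): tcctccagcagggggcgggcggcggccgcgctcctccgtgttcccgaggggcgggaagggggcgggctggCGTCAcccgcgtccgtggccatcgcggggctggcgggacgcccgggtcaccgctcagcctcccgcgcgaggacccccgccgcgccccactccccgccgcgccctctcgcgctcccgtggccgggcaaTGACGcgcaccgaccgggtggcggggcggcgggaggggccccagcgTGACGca
Nfil3 (chr13:52981074-52981289, minus strand): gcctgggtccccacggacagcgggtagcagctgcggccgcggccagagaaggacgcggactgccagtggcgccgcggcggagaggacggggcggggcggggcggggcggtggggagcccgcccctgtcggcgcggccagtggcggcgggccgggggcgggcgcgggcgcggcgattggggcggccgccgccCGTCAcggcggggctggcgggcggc
Atf5 (chr7:44816659-44816908, minus strand): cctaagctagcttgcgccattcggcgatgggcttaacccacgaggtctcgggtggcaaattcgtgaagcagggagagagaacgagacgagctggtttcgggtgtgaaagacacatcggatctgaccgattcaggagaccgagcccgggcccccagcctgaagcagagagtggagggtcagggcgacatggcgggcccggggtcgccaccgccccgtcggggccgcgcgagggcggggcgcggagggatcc
The Atf3 window held 1 CARE, read TTGCATCA on the strand shown, at positions -110 to -103 from the RefSeq start. Its core match at -7 to -3 lies in annotated exon and is not shown. The Cebpb window held 3 cores, at -180 to -176, -53 to -49 and -7 to -3, and the Nfil3 window 1, at -59 to -55. Neither window of Atf5 held any of the 3 motifs. Atf1 held 1 core, at -90 to -86, and Atf2, Cebpa and Cebpg held none of them. Cebpd has no entry. The Nfil3 window belongs to a start that lies inside the full RefSeq span of the gene. Of all 32851 promoter windows, 3.97% held a CARE, 1.79% a CRE and 20.8% a core. A match is a description of letters and not a binding site.

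Library totals ran from 2525029 to 14799515 expected counts (RSEM's estimated counts), so that 3 counts, the limit that a count of 0 allows, equalled 0.203 to 1.19 CPM (counts scaled to the library total). Intervals below are exact 95% intervals of ratios of counts per library total and cover counting error only. Fibroblast markers summed to 4829 to 8983 TPM, with 8, 10 and 7 of 10 at a mean of at least 4 TPM in WT, PERK -/- and NIH3T3 cells (Dcn was at 0 in NIH3T3), while epithelial, endothelial and leukocyte lists stayed at or below 20.96, 3.07 and 1.39 TPM. The check of the knockout, Eif2ak3 (PERK), had 254, 52, 48, 187 and 365 counts in WT MEFs and 74, 90, 113, 106 and 142 in PERK -/- MEFs. Its log2 difference in counts per library total (PERK -/- minus WT) was between -1.34 and -0.68 at the 5 times, but that in TPM lay between -0.25 and 0.89. Which part of the gene the allele lacks is not given in the sources used here, so the gene total is a limited check.

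All 9 members passed the mean of 2 TPM over the MEF libraries (10432 genes did), Cebpa only just, and 7 passed over the NIH3T3 libraries (10117 genes did). Their summed level in WT MEFs was 234, 246.5, 575, 702 and 712 TPM (control, then 1, 2, 5 and 8 h). In PERK -/- MEFs it stayed between 228 and 279 TPM. In the WT control the order of levels per length was Atf1, Cebpb, Cebpg, Atf2, Nfil3, Atf3, Cebpd, Atf5 and Cebpa. At 8 h it was Cebpb, Atf5, Nfil3, Atf3, Atf1, Cebpg, Atf2, Cebpd and Cebpa. Atf5 thus passed from the eighth place to the second, whereas in PERK -/- MEFs Cebpb was first and Atf1 second both in the control and at 8 h.

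**Figure D1:**
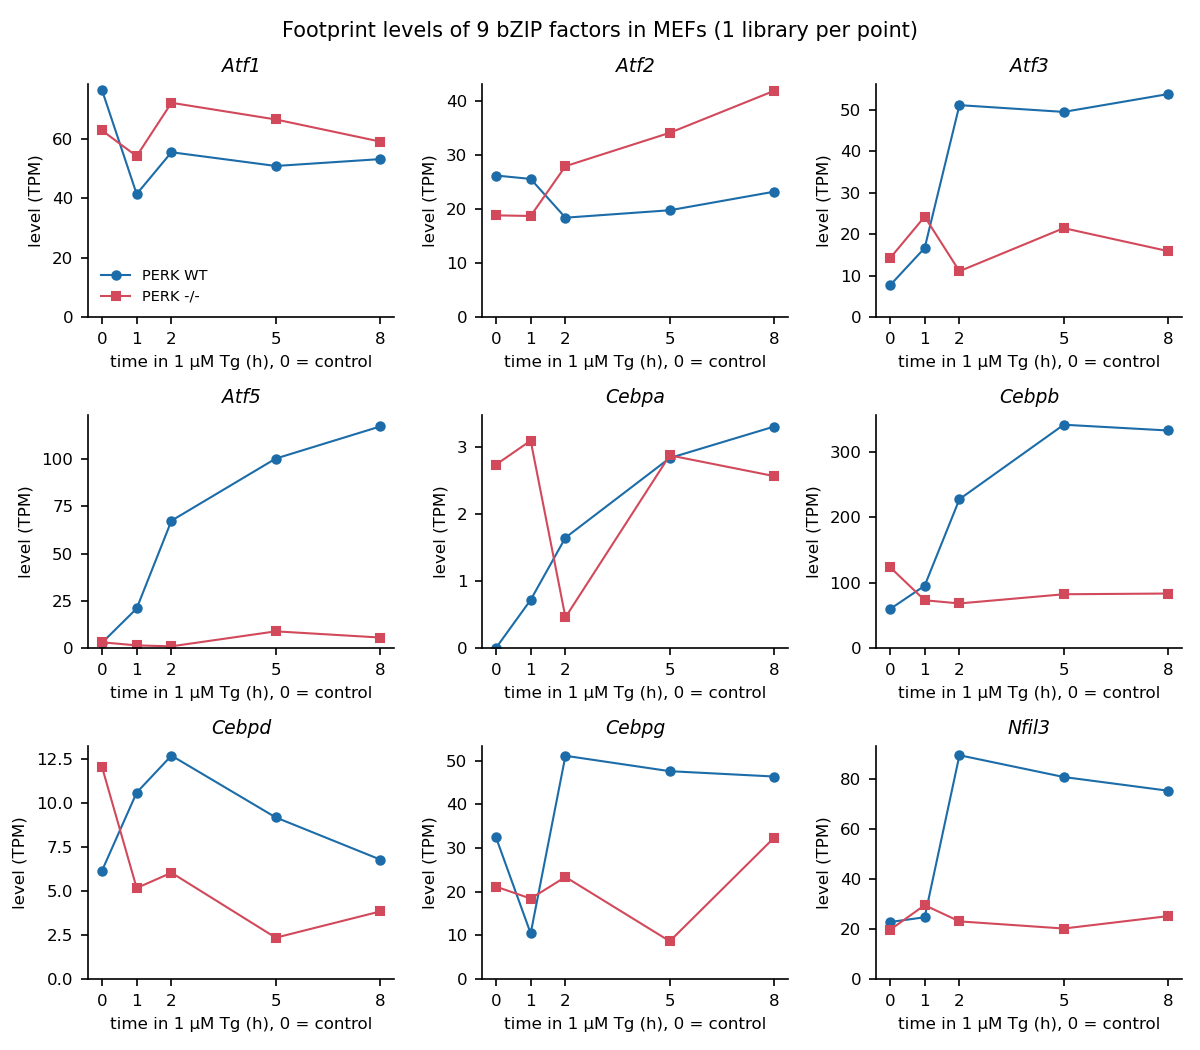
Level (TPM) of each of the 9 members in PERK WT (circles) and PERK -/- MEFs (squares) against the time in 1 μM Tg, with 0 as the control. Each point is 1 library and each panel has its own axis from 0. Atf5 stands higher in WT from 1 h and Atf3 and Nfil3 from 2 h, Cebpb starts higher in PERK -/- and is higher in WT from 1 h, and Cebpa stays under 4 TPM throughout.

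Atf5 (chr7:44812256-44816658, minus strand) encodes a factor that sustains survival and mitochondrial stress responses. In WT MEFs its levels were 2.74 TPM (control), then 20.9, 67.3, 100.2 and 117 TPM after 1, 2, 5 and 8 h. Without PERK the levels were 3.07, 1.42, 0.93, 8.85 and 5.58 TPM in the same order. All 4 WT Tg libraries lay above all 5 PERK -/- libraries. The WT control held 27 counts and the 8 h library 1082, a log2 change of 5.42 in counts (interval 4.87 to 6.03). On the floored TPM scale the WT changes were 2.39, 4.07, 4.65 and 4.87, and the floor understates them since the control lay under 4 TPM. At 8 h only 3 of 10432 genes had a larger change. The WT level still went up between neighbouring times, by a log2 count change of 1.68 from 1 to 2 h (1.24 to 2.13), 0.56 from 2 to 5 h (0.29 to 0.85) and 0.23 from 5 to 8 h (0.07 to 0.39). Counts in PERK -/- MEFs were 17, 12, 12, 60 and 34 counts. The 5 h library was thus the high one there, at a log2 count change of 1.56 (0.77 to 2.44), while 2 h was low at -1.64 (-2.84 to -0.49). At 8 h the WT level was 21.0-fold the PERK -/- level. Footprints were counted on coding sequences clipped by 30 nt at each end, so upstream reading frames outside them were not part of this total. Where another frame overlaps the coding sequence, a gene total cannot tell the frames apart.

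Atf3 (chr1:191170296-191183333, minus strand) encodes a stress-induced factor that mostly represses. Its level in WT MEFs was 7.62, 16.7, 51.1, 49.5 and 53.8 TPM in time order from the control. The PERK -/- levels were 14.2, 24.2, 11.1, 21.4 and 15.9 TPM. The WT libraries at 2, 5 and 8 h were higher than every PERK -/- library, and the WT control was lower than every one. WT log2 TPM changes were 1.13, 2.74, 2.70 and 2.82, and the interval at 8 h, from 45 and 297 counts, was 2.36 to 3.30. After the step from 1 to 2 h (log2 count change 1.61, 0.96 to 2.29), the intervals of the steps from 2 to 5 h and from 5 to 8 h held 0. In PERK -/- MEFs the change at 1 h, 0.77 in TPM, had a counting interval of 0.31 to 1.32 and ranked 187th from the top of all genes, but did not reach 2-fold. The PERK -/- change at 5 h was 0.60 in TPM (counting interval 0.11 to 1.18), and at 2 and 8 h the intervals held 0. The difference of the changes at 1 h (PERK -/- minus WT, in counts) was -0.34 with an interval of -1.16 to 0.49, so a genotype difference was not detectable at this depth at 1 h. At 2, 5 and 8 h it was -3.03 (-3.78 to -2.28), -2.06 (-2.77 to -1.36) and -2.66 (-3.38 to -1.94).

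Cebpb (chr2:167688915-167690432, plus strand, 1 coding exon) encodes C/EBPβ, which serves in inflammation, differentiation and stress. Its level in WT MEFs was 59.4 TPM without Tg and 95.3, 227, 341 and 332 TPM with it. The PERK -/- level was 124 TPM in the control and 73.1, 68.2, 82.2 and 83.3 under Tg. Under Tg the levels changed in opposite directions and crossed. The WT control was the lowest library of all 10, and the PERK -/- control was above all its Tg libraries. From 1 h on the WT level was the higher one. Untreated, Cebpb was 2.09-fold higher in PERK -/- MEFs (log2 count difference 1.22, interval 1.02 to 1.41), and at 8 h 3.99-fold higher in WT MEFs. The log2 TPM changes were 0.68, 1.94, 2.52 and 2.48 in WT and -0.76, -0.86, -0.59 and -0.57 in PERK -/- MEFs, with every counting interval clear of 0. In counts the WT changes were larger, at 0.94, 2.30, 2.80 and 2.82. RSEM divides reads among isoforms, and the ratio of TPM to CPM of Cebpb was 1.82 in the WT control against 1.41 to 1.51 in the WT Tg libraries. RefSeq holds 3 curated proteins of Cebpb, and the full-length activator and the short repressor form that start at different codons of 1 exon cannot be told apart here. The coding exon overlaps an exon of Tmem189 on the opposite strand, and whether counting used strand is not given in the sources used here.

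Cebpd (chr16:15887286-15889545, plus strand) encodes C/EBPδ, an early factor of acute phase and adipogenic responses. Its WT levels were low, at 6.14, 10.6, 12.7, 9.18 and 6.79 TPM, and those in PERK -/- MEFs were 12.1, 5.17, 6.04, 2.35 and 3.84 TPM. WT MEFs were highest at 2 h and close to the control again at 8 h, whereas in PERK -/- MEFs the control was the highest. The WT log2 TPM change at 2 h was 1.05 (counting interval 0.31 to 1.76), from 57 and 25 counts, and at 5 and 8 h the intervals held 0 (-0.04 to 1.19 and -0.40 to 0.70). The change at 2 h fell short of 2-fold with TMM factors (0.97), size factors (0.99) and a pseudocount of 1 (0.94). The PERK -/- changes were -1.22, -0.999, -1.59 and -1.59, the last 2 limited by the floor of 4 TPM. In counts they were -1.19 (-1.80 to -0.60), -0.92 (-1.43 to -0.41), -2.33 (-3.24 to -1.50) and -1.66 (-2.43 to -0.94). The change at 2 h lay just inside 2-fold and was not called.

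Cebpg (chr7:35046422-35056566, minus strand) encodes C/EBPγ, which lacks an activation domain and pairs with ATF4. Its WT levels were 32.5, 10.5, 51.1, 47.6 and 46.4 TPM, and its PERK -/- levels 21.2, 18.4, 23.4, 8.67 and 32.4 TPM. Each genotype had 1 low library, at 1 h in WT and at 5 h in PERK -/- MEFs. The WT log2 TPM change of -1.64 at 1 h was the 17th lowest of 10432 genes and rested on 15 counts against 153 (counting interval -2.50 to -0.86). From 1 to 2 h the WT level went up by 2.28 in log2 counts (1.43 to 3.22). At 2, 5 and 8 h the WT changes were 0.65, 0.55 and 0.51, under 2-fold with intervals above 0. In PERK -/- MEFs the low library at 5 h had 28 counts (-1.29 in TPM, counting interval -1.96 to -0.58), and 8 h was at 0.61. The difference of the changes (PERK -/- minus WT, in counts) was 1.45 (0.54 to 2.37) at 1 h and -0.44 (-1.08 to 0.20) at 2 h. At 5 h it was -1.80 (-2.55 to -1.05) and at 8 h 0.09 (-0.47 to 0.66). A genotype difference in the change was thus not detectable at 2 and 8 h at this depth. The levels at 8 h did differ, by -0.53 in log2 counts (-0.90 to -0.17), as did the controls, by -0.62 (-1.09 to -0.17).

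Cebpa (chr7:35119293-35121928, plus strand) encodes C/EBPα, known from fat, liver and myeloid cells. Its WT levels were 0, 0.72, 1.65, 2.84 and 3.31 TPM from 0, 1, 5, 19 and 31 counts, and its PERK -/- levels 2.74, 3.10, 0.46, 2.88 and 2.57 TPM from 14, 15, 5, 9 and 19 counts. No library reached the floor, so the floored change was 0 in each comparison. The WT control was the only MEF library without a count, and against its limit of 0.251 CPM (3 counts in that library) the measured CPM was 13.5-fold at 5 h and 11.0-fold at 8 h. With the counting error of the 19 and 31 counts taken in, the exact intervals of the log2 count change began at 3.31 and 3.08. The 2 h library of PERK -/- MEFs was low (log2 count change -2.62, -4.45 to -1.07). Adipocyte markers summed to 14.3 to 37.5 TPM in PERK -/- MEFs and 0 to 8.19 TPM in WT MEFs, through Fabp4 alone, since Adipoq, Plin1 and Cidec were at 0 in all 10. Their part in the Cebpa level was not tested. An antisense gene, Gm45091, overlaps the coding part.

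Cebpb made up most of the C/EBP footprints. Its part of the summed TPM of the 4 C/EBP genes was 60.6% in the WT control and 81.4%, 77.6%, 85.1% and 85.5% in the WT Tg libraries in time order. The part in PERK -/- MEFs was 77.5%, 73.2%, 69.5%, 85.5% and 68.2% in the same order. The 5 h library of PERK -/- MEFs stood as high as the WT ones, with Cebpg and Cebpd both at their lowest there.

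Nfil3 (chr13:52967209-52982878, minus strand) encodes a repressor bZIP factor of the clock and of immune cells. Its level in WT MEFs was 22.8, 24.8, 89.7, 80.9 and 75.4 TPM, and in PERK -/- MEFs 19.7, 29.6, 23.1, 20.3 and 25.2 TPM. The WT libraries from 2 h on stood above all others, and the WT library at 1 h lay within the PERK -/- range. The WT log2 TPM change was 0.12 at 1 h (counting interval -0.17 to 0.42), then 1.97, 1.83 and 1.72, with the 8 h interval 1.56 to 1.90 from 384 and 1188 counts. The PERK -/- changes were 0.59, 0.23, 0.04 and 0.36. At 1 h the difference of the changes was above 0 (0.49 in counts, 0.11 to 0.87), and at 2, 5 and 8 h below 0, at -1.67 (-1.99 to -1.35), -1.75 (-2.08 to -1.41) and -1.38 (-1.69 to -1.06).

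Atf1 (chr15:100227859-100261248, plus strand) encodes a CREB-like factor that kinases switch on. Its WT levels were 76.7, 41.5, 55.6, 51.0 and 53.3 TPM, and its PERK -/- levels 63.0, 54.3, 72.3, 66.7 and 59.2 TPM. The WT control was the highest of the 10 libraries, and all 4 WT changes were below 0 in counts and under 2-fold, from -0.89 at 1 h in TPM to -0.46 at 2 h. The 4 PERK -/- changes lay between -0.21 and 0.20.

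Atf2 (chr2:73816509-73892677, minus strand) encodes a partner of JUN that stress kinases phosphorylate. Its WT levels were 26.3, 25.6, 18.4, 19.8 and 23.3 TPM, and its PERK -/- levels 18.9, 18.8, 28.0, 34.2 and 42.0 TPM. Each later PERK -/- library from 2 h on was higher than the one before, and the last 3 were above every WT library. The PERK -/- log2 TPM change of 1.15 at 8 h was past 2-fold, but in counts, from 172 and 341, it was 0.84 (0.57 to 1.12). Atf2 has 9 curated RefSeq transcripts, and its ratio of TPM to CPM ran from 0.70 to 0.97. The difference of the changes was 0.95 in counts at 8 h (0.60 to 1.29).

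**Figure D2:**
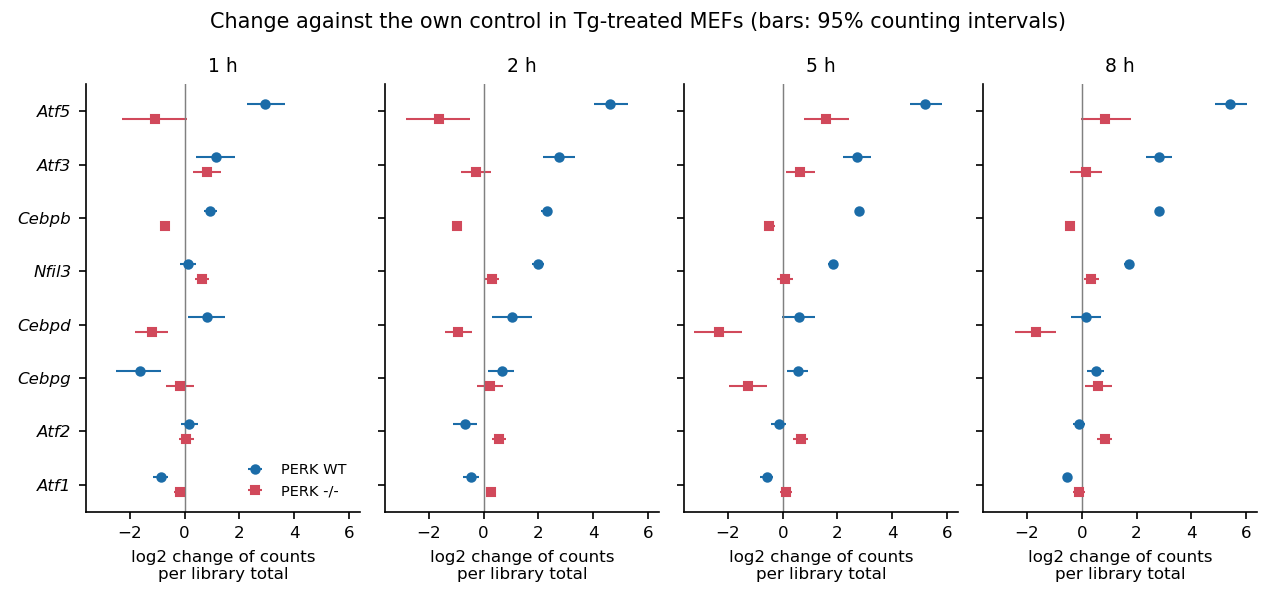
Log2 change of counts per library total against the control of the same genotype (horizontal axis) for 8 members at each time, PERK WT circles and PERK -/- squares. Bars are 95% counting intervals, not replicate spread. Cebpa is left out for its 0 in the WT control. Cebpb and Cebpd lie right of 0 in WT and left of 0 in PERK -/- MEFs at each time, but the WT bars of Cebpd cross 0 at 5 and 8 h.

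Read against all expressed genes, the WT counts of members stood as follows. At 1 h, 2 of 9 members (Atf3 and Atf5) were up at least 2-fold beside 4.33% of all genes, and 1 (Cebpg) was down beside 2.29%. At 2 h, 5 (Atf3, Atf5, Cebpb, Cebpd and Nfil3) were up beside 5.66%, and 0 were down beside 4.01%. The Cebpd call ended with TMM factors, size factors and a pseudocount of 1, and the count up was 4 with either set of factors. At 5 h the 4 members Atf3, Atf5, Cebpb and Nfil3 were up beside 5.86%, and these 4 again at 8 h beside 6.45%. Cebpa, under the floor in each library, could not be called. With a floor of 1 TPM or a pseudocount of 1 it was up too, and the count up was 5 at 5 h and 5 at 8 h. No member was down at 5 h beside 3.55%, nor at 8 h beside 3.87%. The median log2 change of the members was 0.12, 1.05, 0.58 and 0.51, and that of all genes rounded to 0.00, 0.00, 0.00 and 0.01. The 4 comparisons share 1 control library, so they do not repeat each other independently.

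In PERK -/- MEFs 0 of 9 members were up at 1 h beside 0.719% of all genes, 0 at 2 h beside 0.623%, 1 (Atf5) at 5 h beside 3.26% and 1 (Atf2) at 8 h beside 3.28%. With CPM raised to at least 4 in place of TPM, 0 members were up at 5 h and 0 at 8 h. For Atf5 it was the floor that ended the call, since its control lay at 2.52 CPM and its change without a floor was 1.56 in log2 counts, as given above. Cebpd was down at 1 h beside 3.38%, none at 2 h beside 5.78%, Cebpd and Cebpg at 5 h beside 4.77%, and Cebpd at 8 h beside 2.73%. The members' medians were -0.01, 0, 0.04 and 0.17, against -0.06, -0.11, 0 and 0.04 for all genes. Here too 1 control is shared.

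**Figure D3:**
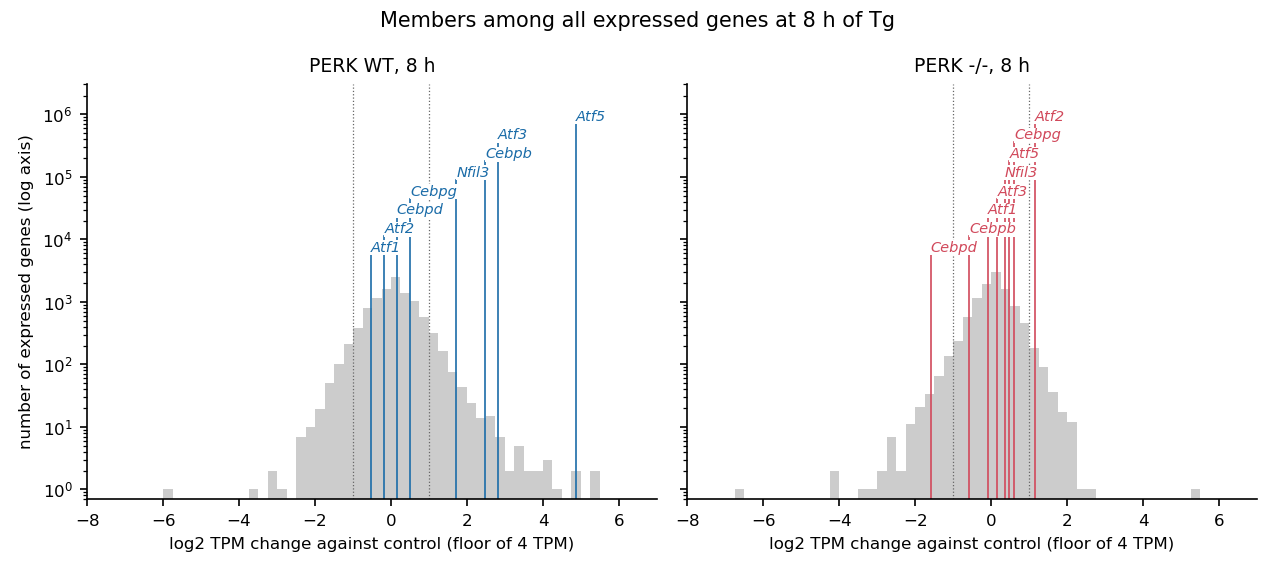
Log2 TPM change at 8 h of Tg (horizontal axis, values under 4 TPM raised to 4) of all 10432 expressed genes as grey bars (number of genes, log axis) and of 8 members as vertical lines, in PERK WT (left) and PERK -/- MEFs (right). The height of a line has no meaning and dotted lines mark 2-fold. In WT MEFs 4 members lie past 2-fold on the right, with Atf5 at 4.87, and in PERK -/- MEFs Atf2 lies past it on the right and Cebpd on the left.

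Between genotypes at the same time, 1 of 9 members (Cebpb) differed at least 2-fold in either direction in the controls, beside 8.00% of all genes, with Cebpd just under 2-fold at 0.98. At 1 h it was 2 (Atf5 and Cebpd), beside 8.83%. At 2 h it was 6 (Atf3, Atf5, Cebpb, Cebpd, Cebpg and Nfil3), beside 16.3%, and at 5 h the same 6, beside 16.0%. At 8 h it was 4 (Atf3, Atf5, Cebpb and Nfil3), beside 15.7%. Each of these Tg differences had the higher level in WT MEFs, and the control difference of Cebpb had it in PERK -/- MEFs. Some of these calls lay close to 2-fold. In log2 counts Cebpd differed by -1.02 (-1.74 to -0.29) at 1 h and -1.01 (-1.68 to -0.29) at 2 h. Cebpg differed by -1.06 (-1.53 to -0.57) at 2 h. With TMM factors all of these fell just under 2-fold, and both Cebpd differences did so with a pseudocount of 1 too. The Cebpd difference at 5 h, -1.20 in TPM, fell under 2-fold on scales raised to at least 4 CPM. These gave -0.83 with CPM, -0.84 with TMM factors, -0.83 with size factors and -0.25 with thinned counts. Without a floor the Cebpd difference at 5 h was -1.93 in log2 counts (-2.89 to -1.04). The difference of the changes was the largest in size for Atf5 at each time among the 8 members with counts in all libraries, from -3.63 at 5 h (-4.58 to -2.67) to -6.27 at 2 h (-7.49 to -5.05) in counts. For Atf1 and Atf2 it was above 0 at 2, 5 and 8 h.

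**Figure D4:**
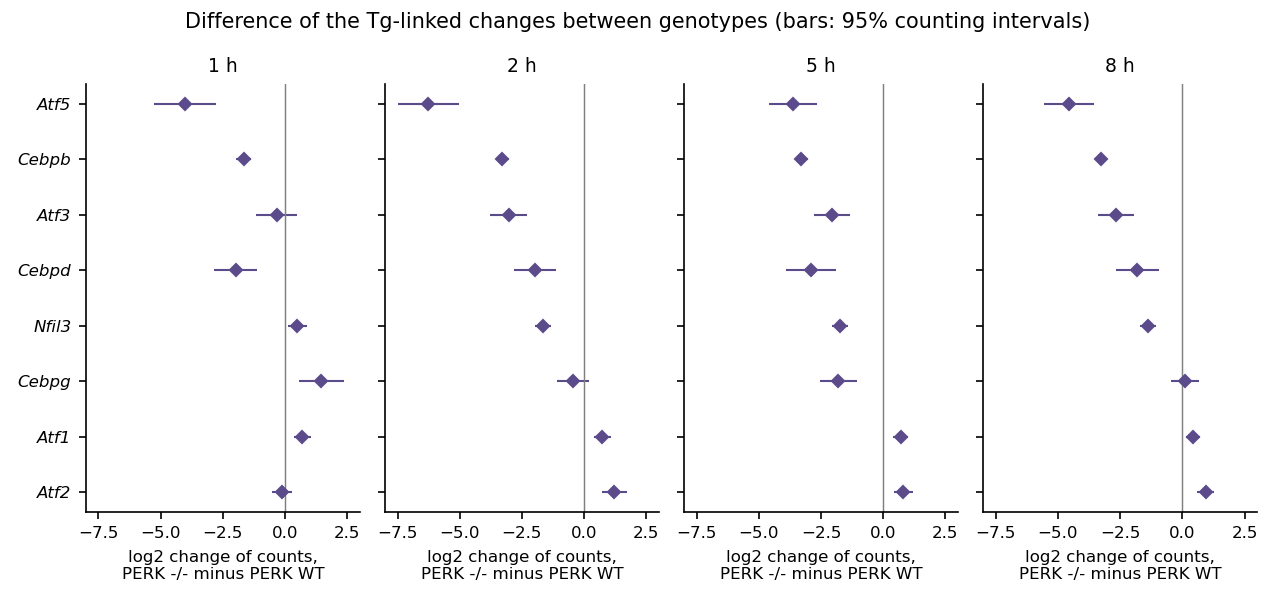
Difference of the Tg-linked log2 changes of counts, PERK -/- minus PERK WT (horizontal axis), for 8 members at 1, 2, 5 and 8 h. Bars are 95% counting intervals from the 4 counts involved. Atf5, Cebpb and Cebpd lie left of 0 at each time, and Atf1 lies right of 0 at each time.

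NIH3T3 cells received a lower dose at 2 and 7 h, so their values are given without a comparison with the MEFs. Atf5 was at 36.3, 257 and 216 TPM (control, 2 h and 7 h, log2 changes 2.82 and 2.57, counting intervals 2.76 to 3.13 and 2.40 to 2.75). The 2 h library was the highest of the 3 for this gene. Nfil3 was at 40.0, 77.6 and 88.2 TPM, with changes of 0.95, just under 2-fold, and 1.14. Cebpg was at 64.1, 82.8 and 109 TPM, with changes of 0.37 and 0.77, both under 2-fold with counting intervals above 0. Cebpb was at 182, 192 and 241 TPM, a change of 0.08 at 2 h, where the counting interval held 0, and of 0.41 at 7 h (0.43 to 0.64 in counts). Cebpd was at 52.9, 85.5 and 47.6 TPM, so that only the 2 h library was high (log2 change 0.69). Atf1 was at 86.9, 64.9 and 75.8 TPM and Atf2 at 23.8, 17.3 and 20.6 TPM, the controls being the highest. Atf3 had 2, 1 and 8 counts, and Cebpa had 0 in each library, which allows up to 0.270, 1.17 and 0.521 CPM. At 2 h, 1 of the 7 expressed members (Atf5) was up beside 5.76% of all genes and 0 down beside 3.76%, and at 7 h, 2 (Atf5 and Nfil3) were up beside 7.01% and 0 down beside 8.06%. The median of the 7 was 0.37 and 0.41, that of all genes -0.13 and 0.

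**Figure D5:**
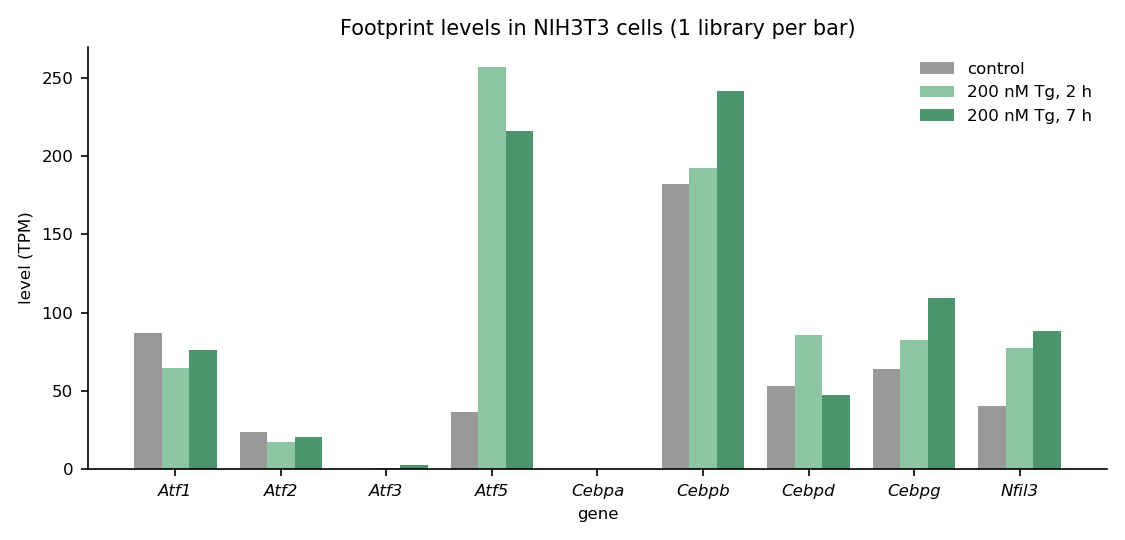
Level (TPM) of the 9 members in NIH3T3 cells, as bars from 0 for the control and for 2 h and 7 h of 200 nM Tg, 1 library per bar. Atf5 stands at 36.3, 257 and 216 TPM, and Atf3 and Cebpa are near or at 0.

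The partners of these factors moved too. Atf4 had 34.5 TPM in the WT control and 576 at 8 h, and 41.4 and 58.2 in PERK -/- MEFs. Ddit3 had 13.8 and 580 TPM in WT and 6.91 and 13.4 in PERK -/- MEFs. Of 31 expressed of 44 other bZIP genes, which include both, 8, 10, 7 and 8 were up at 1, 2, 5 and 8 h in WT MEFs and 0 were down. At these times 4.33%, 5.66%, 5.86% and 6.45% of all genes were up and 2.29%, 4.01%, 3.55% and 3.87% down. Without PERK 2, 2, 3 and 2 of the 31 were up and 1, 4, 4 and 2 down, where 0.719%, 0.623%, 3.26% and 3.28% of all genes were up and 3.38%, 5.78%, 4.77% and 2.73% down. Among them Fosl1, a FOS family partner of JUN, was the lowest at 8 h in WT MEFs with a change of -0.90 and stood at -2.02 in PERK -/- MEFs. Creb1, the closest kin of Atf1 in this list, had -0.31 in TPM but 0.31 in counts in WT MEFs. In NIH3T3 cells 10 and 13 of 29 were up and 1 and 3 down at 2 and 7 h, where 5.76% and 7.01% of all genes were up and 3.76% and 8.06% down.

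Of 26 targets linked to ATF4 and CHOP, all expressed in MEFs, 7, 18, 24 and 23 were up in WT MEFs (4.33%, 5.66%, 5.86% and 6.45% of all genes) and 0 down (2.29%, 4.01%, 3.55% and 3.87%). Without PERK 0, 2, 1 and 4 were up (0.719%, 0.623%, 3.26% and 3.28% of all genes) and 3, 3, 3 and 0 down (3.38%, 5.78%, 4.77% and 2.73%). Trib3, a pseudokinase that restrains ATF4 and CHOP, went from 4.12 to 182.5 TPM at 8 h in WT and stood at 12.5 and 15.5 TPM in PERK -/- MEFs. Ddit3, with a WT log2 change of 5.39 at 8 h, is in this list too. It is also counted among the other bZIP genes above, so the lists overlap. At the other end, Tnfrsf10b, a death receptor, had 50.8 and 49.5 TPM in WT MEFs and 96.0 and 126 TPM in PERK -/- MEFs (log2 count change 0.39, 0.25 to 0.53). Ero1l, an ER oxidase, had 33.0 and 53.0 TPM in WT and 37.0 and 52.7 TPM in PERK -/- MEFs, 1.60-fold and 1.43-fold. In NIH3T3 cells 7 and 13 of 25 were up (5.76% and 7.01% of all genes).

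Of 20 acute phase and inflammatory genes linked to C/EBP factors, 12 were expressed in MEFs. In WT MEFs 3, 6, 2 and 3 were up (4.33%, 5.66%, 5.86% and 6.45% of all genes) and 0, 1, 1 and 1 down (2.29%, 4.01%, 3.55% and 3.87%). Without PERK 2, 1, 0 and 0 were up (0.719%, 0.623%, 3.26% and 3.28%) and 1 was down at each time (3.38%, 5.78%, 4.77% and 2.73%). Ptx3, a soluble pattern recognition protein, went from 32.6 to 179 TPM at 8 h in WT MEFs and stood at 71.2 and 69.7 TPM in PERK -/- MEFs. The chemokine gene Ccl2 had a change of 0.58 in WT and -0.02 in PERK -/- MEFs. Csf1, a macrophage growth factor, had -0.42 in WT MEFs and was down in PERK -/- MEFs at -1.35, and Ptgs2, a prostaglandin synthase, had 0.30 and 0.04. In NIH3T3 cells 4 and 3 of 11 were up (5.76% and 7.01% of all genes).

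Over the 10 MEF libraries, the genes most like each member in log2 TPM were sought among 9020 genes, as a description in which all points of a gene pair share a library and its depth. Atf5 was most like Sash1 (Pearson r 0.994, Spearman rho 0.969), Shmt2, a mitochondrial serine enzyme (0.976 and 0.913), and Mcm2, of the replicative helicase (0.976 and 0.832). Cebpb was most like Itfg2 (0.977 and 0.867), Trib3 (0.976 and 0.912) and Acot2 (0.970 and 0.919). Atf3 was nearest to Pappa (0.958), Rnd1 (0.955) and Mid1ip1 (0.939). Nfil3 was nearest to Tbc1d9 (0.982), Kif7 (0.976) and Ciapin1 (0.966), the last with a rho of only 0.455. Among the other members the nearest genes were Dnlz for Cebpg (0.956), Eif4enif1 for Atf1 (0.925), Sec11c for Atf2 (0.908) and Gltscr2 for Cebpd (0.880). No member was among the 3 nearest genes of another, but Cebpa and Cebpd, with under 500 counts, could not be. Cebpa, under the floor in each library, was not searched for.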

How the data were processed

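Ribosome footprints of 13 libraries were used, without cycloheximide at any step. The authors filtered out rRNA and tRNA with STAR, then aligned footprints of 22 to 34 nt with Bowtie2 to mm10 RefSeq coding sequences clipped by 30 nt at each end. The expected counts and TPM values per gene were deposited by the authors as RSEM gave them, and tool versions were not given in the sources used here. Genes were kept at a mean of 2 TPM or more per table, TPM values under 4 were raised to 4, and a change of at least 2-fold was called. These settings follow the study's methods, except that those state the filter across all samples and the mean was taken here within each table. A mean over all 13 libraries, an alternative chosen after seeing the data, would drop Cebpa (1.56 TPM). Counts gave exact (Clopper-Pearson) 95% intervals, and the difference of changes a delta-method interval. The interval code was tested on simulated data.

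The members and lists were chosen with earlier results of these data known. Named are the members, Eif2ak3, Atf4, Ddit3, the 3 genes most like each member (at least 500 counts over the MEF libraries), and in each list the 2 largest and 2 smallest WT changes at 8 h (at least 100 counts in 1 library). As alternatives, values were taken as CPM, with a floor of 1 TPM, with a pseudocount of 1, with TMM factors (edgeR 4.0.16), DESeq2 1.42.0 size factors, with thinned counts, after a filter at a mean of 5 TPM or none, and at 3-fold and 1.5-fold thresholds. R 4.3.3 and Python 3.11.15 (matplotlib 3.10.9, scipy 1.17.1, pandas 2.3.3, numpy 2.4.6) were used.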

Additional observations from a re-analysis of the deposited data

Results flagged for a closer look

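Cebpb and Cebpd moved in opposite directions in the 2 genotypes, each being above the control in all 4 Tg libraries of WT MEFs and below it in all 4 of PERK -/- MEFs. For Cebpb the log2 TPM change in PERK -/- MEFs minus that in the WT came to -1.44, -2.80, -3.11 and -3.06 in time order. For Cebpd it was -2.01, -2.05, -2.17 and -1.74. For Cebpd the WT counting intervals held 0 at 5 h (-0.04 to 1.19) and 8 h (-0.40 to 0.70), so only the WT changes at 1 and 2 h were apart from 0. The 4 differences of a gene share both control libraries, the Cebpb control level was 2.09-fold higher and that of Cebpd 1.97-fold higher in PERK -/- MEFs, and with 1 library per condition the difference was not tested.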

How the results depend on the processing

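All 44 changes and genotype differences of at least 2-fold kept their sign under each of 6 other scales (264 of 264 values), and 239 of 264 stayed past 2-fold. Of the alternative counts of members, 189 stayed within 1.5 times of the reported count and 31 did not, and the mean over all 13 libraries changed none. In WT MEFs at 1 h the count up was 1 at 3-fold and 4 at 1.5-fold, and the count down 2 at 1.5-fold, where 1 was down at 5 h. In PERK -/- MEFs, the count up at 1 h was 1 with thinned counts and 2 at 1.5-fold, and the count down was 2 with a floor of 1 TPM, 0 at 3-fold and 2 at 1.5-fold. The count down at 2 h was 2 with a floor of 1 TPM, 2 with a pseudocount of 1 and 2 at 1.5-fold. The single member up at 5 h (Atf5) and at 8 h (Atf2) in PERK -/- MEFs was lost (count of 0) with CPM, TMM factors, size factors and thinned counts, all raised to at least 4 CPM, and at 3-fold, and at 1.5-fold the counts were 3 and 2. Without a floor the Atf5 change at 5 h was 1.56 in log2 counts per library total, past 2-fold. The count down at 5 h was 1 with TMM factors and 1 at 3-fold. In NIH3T3 cells at 2 h the count up was 2 with CPM, 2 with TMM factors, 2 with size factors and 3 at 1.5-fold, and at 7 h it was 1 at 3-fold. The floor alone set some values of Atf5 in PERK -/- MEFs, whose difference from WT MEFs at 2 h was -4.07 as reported and -6.07 with a floor of 1 TPM. The median of all genes, -0.11 at 2 h in PERK -/- MEFs and -0.13 at 2 h in NIH3T3 cells in TPM, was 0 and -0.01 with size factors.

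No paired analysis was possible because the labels give no replicate numbers shared between groups of 2 or more, and the MEF libraries that share a time differ in genotype while the times are treatments, not replicates. Leaving out a replicate was not run, with 1 library per condition. Counts as low as 12 for Atf5 and 15 for Cebpd and Cebpg limit the precision of their values.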
